A study of Mus musculus with 6 samples.

Results

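Toll-like receptors, C-type lectins, Fc receptors, Siglecs and the Cd300 receptors are the families through which macrophages, dendritic cells and other myeloid cells sense microbial molecules, glycans, lipids and antibody-coated particles. Their genes were followed in 6 mouse triple-negative breast tumors. Members were chosen by name alone: gene symbols that start with Tlr, Clec or Fcgr followed by a digit, or with Fcer, Siglec, Cd209 or Cd300. This gave 38 of the 13730 genes in the table, and 20 of the 38 had enough reads to be tested. None of the 20 passed the test between control tumors and tumors of mice given sulindac sulfide (SS). RefSeq lists 78 mouse genes whose names match the rule, and those outside the 38, among them every Cd209 gene, were not analysed here.

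The tumors grew from C0321 cells, a single mouse line that arose in an FVB mouse lacking Lunatic Fringe (Lfng). In each female FVB mouse, 6 to 10 weeks old, the same number of these cells had been placed in the mammary fat pad in Matrigel. The groups were 3 control mice and 3 mice with oral SS, 60 mg/kg a day, which started when tumors were palpable and ran for 14 days. Each group is thus 3 tumors, and p-values weigh the difference between groups against the spread between tumors. SS is the active metabolite of sulindac and inhibits both cyclooxygenases. The sample labels write the drug as a sulfate and the series description gives saline to the controls, whereas the paper speaks of sulfide and vehicle.

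Toll-like receptors signal through the adaptors Myd88 and Ticam1. Those at the cell surface bind bacterial lipids and proteins, and those in endosomes bind nucleic acids. Activating C-type lectins and Fc receptors signal through the ITAM motif, an activating tyrosine motif, and the kinase Syk, often by way of the small adaptor Fcer1g. Fcgr2b and many Siglecs instead carry an inhibitory motif, the ITIM, that recruits phosphatases. In tumors these genes are known mainly from macrophages and dendritic cells.

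Libraries held between 8468948 and 24441553 counts, and SS tumor 2 was the smallest. CPM is the count scaled to library size. A gene at 3 counts, the limit that a count of 0 allows, stood at 0.123 to 0.354 CPM by unscaled library totals. The levels of genes given here use TMM-scaled totals, by which 3 counts in SS tumor 2 were 0.358 CPM. The keratin Krt8 was at 417 to 544 CPM and Vim at 5875 to 8620 CPM, while the hormone receptor Esr1 was at 4.48 to 6.40 CPM. Macrophage markers were present, and Csf1r, the receptor for the macrophage growth factor, was at 322 to 447 CPM. Adipocyte markers, led by the lipase Lpl at a mean of 73.6 CPM, differed widely within groups, from a summed 13.8 CPM in control tumor 3 to 260 CPM in control tumor 1. That limit covers counting error only, whereas the intervals of fold changes given for the members come from edgeR's fit and include the spread between tumors.

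The 38 receptor genes together took between 0.00792% and 0.0113% of all counts. The median tested member had 141 counts over the 6 tumors, against 1342 for the median tested gene. Low counts therefore bound what could be seen for most members, and 12 of the 38 had 0 counts in at least 1 tumor.

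Stretches of DNA that near relatives share decide whether a read can be given to 1 gene. Tlr1 and Tlr6, which each pair with Tlr2 to bind bacterial lipopeptides, are shown because they had the largest shared share among the members. Their coding sequences were identical over 229 bases on the minus strand of chromosome 5 (GRCm38), in exon 4 of 4 of Tlr1 at chr5:64925537-64925765 and in exon 2 of 2 of Tlr6 at chr5:64953828-64954056. The first 75 bases of that run, the length of a sequencing read, are printed in lower case for both genes.
Tlr1, chr5:64925691-64925765: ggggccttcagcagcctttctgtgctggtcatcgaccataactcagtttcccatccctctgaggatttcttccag
Tlr6, chr5:64953982-64954056: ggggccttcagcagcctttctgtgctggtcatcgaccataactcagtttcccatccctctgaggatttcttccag

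A read from this stretch fits both genes. Of the 75-base windows in the Tlr1 transcript, 340 also lay in Tlr6, which was 11.5% of the windows of Tlr1 and 9.44% of those of Tlr6. Fcgr2b and Fcgr3, a low-affinity inhibitory and a low-affinity activating receptor for IgG, shared 94 windows, and Fcgr2b had 246 windows, or 7.09% of its own, that also lay in another gene, those in Fcgr3 included. Siglecg shared 146 windows, or 5.85%, with the gene model Gm29791. Clec10a, a galactose-binding lectin of macrophages and dendritic cells, shared 145 windows, or 6.42% of its own, with its neighbor Mgl2. Cd300a shared 66 windows with Cd300c2 and Cd300ld shared 60 with Cd300lf, whereas no Toll-like receptor other than Tlr1 and Tlr6 shared any. Counts of these genes are uncertain where reads fell in such windows.

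A sequence feature that the choice by name did not use was more frequent in the members' promoters than in all promoters, though not in each. The letters GAGGAA, or TTCCTC on the other strand, form the core of the motif bound by PU.1, a transcription factor of myeloid cells. They were found on either strand in the 250 bases before the start of 23 of 34 member promoters, or 67.6%, from 29 matched genes. Of all 32851 RefSeq promoters searched in the same way on GRCm38, 7639, or 23.3%, held these letters. Fcgr1 and Tlr8 are shown as members with a match and with high levels, and Tlr2 as one without a match, each on the minus strand and with the matched letters in capitals.
Fcgr1, chr3:96293970-96294219: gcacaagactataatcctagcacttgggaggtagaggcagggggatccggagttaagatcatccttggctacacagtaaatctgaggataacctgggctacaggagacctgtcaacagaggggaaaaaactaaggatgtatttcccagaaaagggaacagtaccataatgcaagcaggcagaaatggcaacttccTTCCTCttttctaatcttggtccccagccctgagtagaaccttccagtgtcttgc
Tlr8, chrX:167264330-167264579: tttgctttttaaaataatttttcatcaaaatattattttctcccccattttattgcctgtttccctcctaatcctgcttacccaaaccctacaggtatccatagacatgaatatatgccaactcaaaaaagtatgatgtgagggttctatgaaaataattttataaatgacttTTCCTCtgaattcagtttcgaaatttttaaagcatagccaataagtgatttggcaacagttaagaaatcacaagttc
Tlr2, chr3:83841609-83841858: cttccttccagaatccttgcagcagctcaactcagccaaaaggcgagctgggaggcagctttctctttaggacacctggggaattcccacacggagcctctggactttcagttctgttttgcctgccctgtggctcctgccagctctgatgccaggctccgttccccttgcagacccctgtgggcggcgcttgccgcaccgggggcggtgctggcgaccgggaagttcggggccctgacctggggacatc

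A match is a description of letters and not of binding, and no binding was measured here. Genes with a match came from each large family, among them Clec4e, Clec5a, Clec7a, Fcgr3, Fcgr4, Siglece, Siglecf, Tlr1, Tlr9 and 4 of the 5 Cd300 genes. Tlr3, Tlr6, Fcgr2b and Fcer1g had none in this window. Many members also lie side by side on the chromosomes. Fcgr2b, Fcgr4, Fcgr3 and Fcer1g span 273.8 kb of chromosome 1, the 5 Cd300 genes span 244.0 kb of chromosome 11, and Tlr8 and Tlr7 span 89.4 kb of the X chromosome.

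Levels between genes were compared as CPM per kb of the longest coding transcript. Clec16a stood first at 5.01 CPM per kb over the 6 tumors. It was followed by Fcgr1 at 3.79, Tlr8 at 2.94, Fcer1g at 2.38 and Tlr3 at 1.83 CPM per kb. At the other end were Clec1a at 0.0462, Cd300a at 0.0310 and Tlr6 at 0.0257 CPM per kb. For all 37 pairs of neighbors in this order the ranges over the 6 tumors overlapped, so no step between neighbors exceeded the spread between tumors. Clec16a, whose product is an intracellular regulator of mitophagy in spite of its lectin name, is not a surface receptor. By mean level, the highest receptors were Fcgr1, the high-affinity receptor for IgG, and Tlr8 of the endosome. Their ranges, 2.84 to 5.158 and 2.398 to 3.913 CPM per kb, overlapped those of Fcer1g and Tlr3. Their place above these receptors thus holds for means only.

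**Figure D1:**
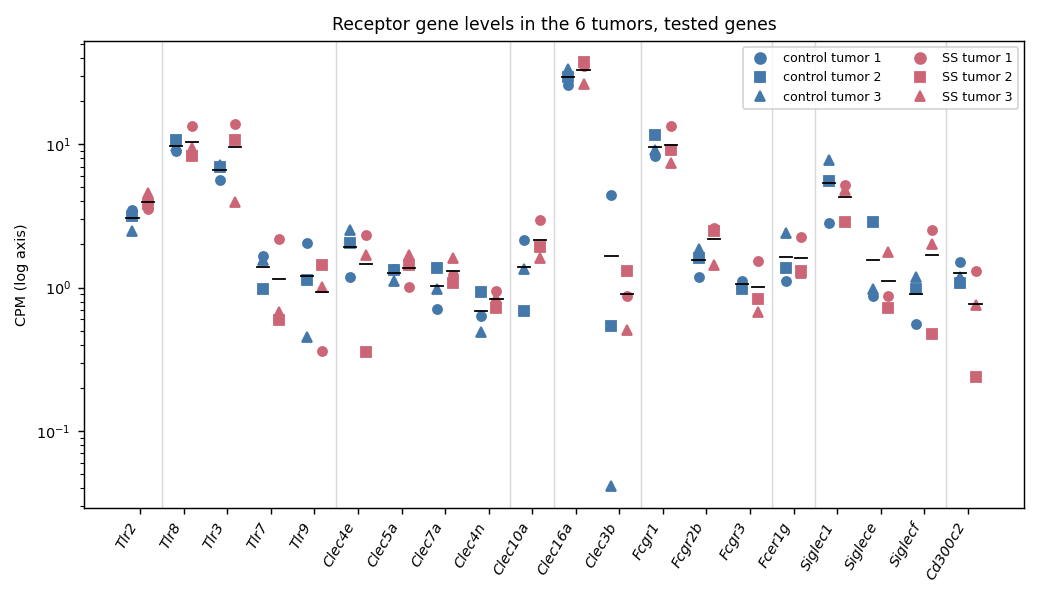
CPM of the 20 tested receptor genes in each tumor on a log axis, with 1 point per tumor and the groups distinguished by color. Clec16a lies highest at 25.9 to 37.6 CPM, most others lie near 1 CPM, and the points of the groups are separate for Tlr2 alone.

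The comparison of SS-treated with control tumors asked whether the drug altered the immune receptors of the tumor. After Benjamini-Hochberg adjustment of edgeR's quasi-likelihood p-values, 0 of the 20 tested members had an adjusted p under 0.05, and 0 of all 10902 genes tested did (0%). At an unadjusted p under 0.05, edgeR and DESeq2 each called 0 of the 20 members, where edgeR called 693 of all genes tested, or 6.36% (3.19% higher and 3.16% lower in SS tumors). The smallest unadjusted p of a member was 0.2234 in edgeR's test, for Siglecf, and adjusted p ran from 0.871 to 0.994. DESeq2 called 35 of the 6039 genes to which it gave an adjusted p (0.58%), and gave one to 1 member, Clec16a, at 0.938.

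Among the tested members 11 were nominally higher and 9 nominally lower in SS tumors. Their median log2 fold change was 0.07, against -0.00135 for all genes tested. The median size of the change, regardless of sign, was 0.36 on the log2 scale for members and 0.19 for all genes. Standard errors ran from 0.18 to 1.25, and the 95% interval of every one of the 20 included 0. Only for Clec16a, Fcgr1 and Tlr8 did the interval lie within a change of 1 in either direction on the log2 scale. For the other 17 the interval reached beyond a change of that size. In bulk tumor RNA, fewer cells of a type and less RNA per cell cannot be told apart.

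**Figure D2:**
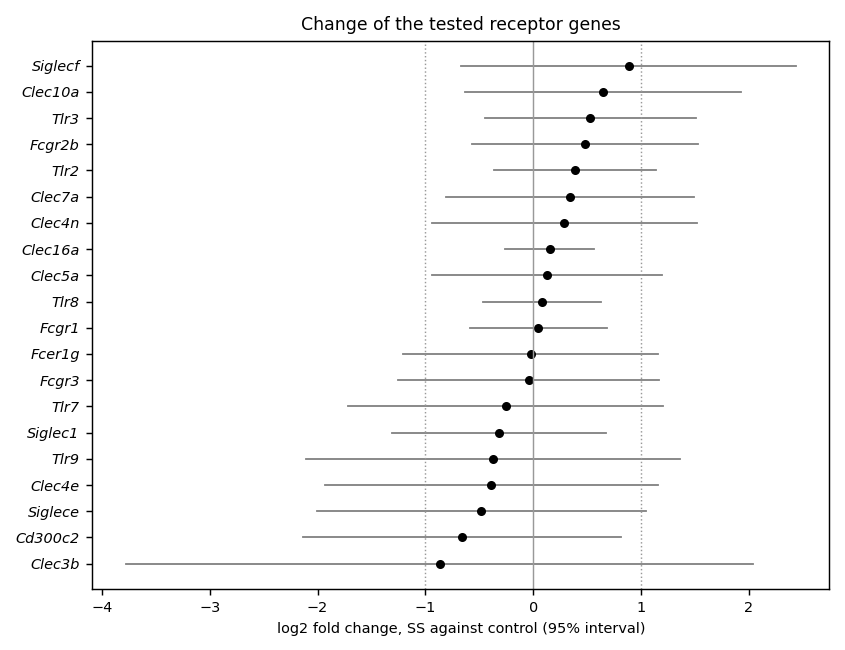
Log2 fold change of each tested member, SS against control, from edgeR's fit, as a point with its 95% interval, ordered by size. Values run from -0.87 for Clec3b to 0.89 for Siglecf, and every interval crosses 0.

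Among the Toll-like receptors of the cell surface, Tlr2, which binds bacterial lipopeptides (chr3:83836272-83841608), was the 1 tested member, or 5% of the 20, whose groups did not overlap. Over all genes tested this share was 12.9%, with 6.51% higher and 6.4% lower in SS tumors. Tlr2 was at 3.48, 3.15 and 2.503 CPM in control tumors 1, 2 and 3 and at 3.56, 3.82 and 4.56 CPM in SS tumors 1, 2 and 3. The lowest SS tumor lay just above the highest control tumor. For this gene the log2 fold change was 0.39 ± 0.32 (SE; edgeR unadjusted p = 0.263, adjusted p = 0.885), and the exact two-sided permutation p was 0.1, the smallest that 3 against 3 tumors allow. The partners of Tlr2 were scarce: Tlr1 had 2, 12 and 9 counts in control and 8, 1 and 2 counts in SS tumors, and Tlr6 had between 0 and 3 counts in each tumor. Tlr4, the receptor for lipopolysaccharide, had 2, 8 and 9 counts in control and 6, 2 and 4 counts in SS tumors. None of these had enough counts for a test.

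The endosomal receptors were the more abundant Toll-like group. Tlr8 (chrX:167241123-167264329) was at 9.01, 10.7 and 9.73 CPM in control and 13.4, 8.23 and 9.46 CPM in SS tumors. Control tumors were close together, and the SS tumors lay on both sides of them. Its log2 fold change was 0.09 with a 95% interval from -0.46 to 0.63 (edgeR unadjusted p = 0.727).

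Tlr3, the sensor of double-stranded RNA (chr8:45395665-45410539), was at 5.61, 6.98 and 7.14 CPM in control and at 13.9, 10.7 and 3.97 CPM in SS tumors. SS tumors 1 and 2 were above all controls, and SS tumor 3 was below all of them. In edgeR's fit the log2 fold change was 0.53 ± 0.42 (SE; edgeR unadjusted p = 0.245, adjusted p = 0.879). Without SS tumor 3 it was 0.90 with an unadjusted p of 0.00899 in edgeR's test, and no gene then passed adjustment. Leaving out SS tumor 1 instead gave 0.15.

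Tlr9, the sensor of unmethylated CpG DNA, was at 2.06, 1.13 and 0.451 CPM in control and 0.363, 1.43 and 1.01 CPM in SS tumors. The highest and the lowest tumor were from different groups, and the rest overlapped. The fitted log2 fold change was -0.37 ± 0.75 (SE; edgeR unadjusted p = 0.630), and it was 0.22 without control tumor 1. Control tumor 1 was also highest for Pax5, a transcription factor of B cells, at 14.2 CPM, and for Cd3e, a subunit of the T cell receptor complex, at 45.9 CPM. The part of such cells in the Tlr9 level was not tested. Tlr7, the neighbor of Tlr8 and a sensor of single-stranded RNA, ranged from 0.596 to 2.18 CPM with SS tumors at both ends. Tlr13, a sensor of bacterial ribosomal RNA, had 0 to 9 counts per tumor.

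Of the Fc receptors for IgG, Fcgr1 (chr3:96282909-96293969) was at 8.30, 11.6 and 9.11 CPM in control and 13.4, 9.18 and 7.35 CPM in SS tumors. The highest and the lowest tumor were both from the SS group. Its log2 fold change was 0.05 with a 95% interval from -0.59 to 0.68 (edgeR unadjusted p = 0.868). Fcgr2b, the inhibitory receptor (chr1:170960559-170976071), was at 1.19, 1.62 and 1.85 CPM in control and 2.61, 2.504 and 1.44 CPM in SS tumors. SS tumors 1 and 2 were above the controls and SS tumor 3 lay among them. For Fcgr2b the log2 fold change was 0.48 ± 0.45 (SE; edgeR unadjusted p = 0.318).

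Fcgr3 ranged from 0.676 to 1.52 CPM with the controls in the middle, and Fcgr4, another activating receptor, had 1 to 8 counts per tumor. Fcer1g, the common gamma chain through which several members signal (chr1:171229572-171234349), was at 1.11, 1.38 and 2.42 CPM in control and 2.25, 1.31 and 1.27 CPM in SS tumors. The groups covered almost the same range. Its log2 fold change was -0.02 with a 95% interval from -1.21 to 1.16 (edgeR unadjusted p = 0.963). Tyrobp, the other small ITAM adaptor of myeloid cells, was as scarce, at 0.338 to 1.81 CPM, in tumors where Csf1r stood at 322 to 447 CPM.

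The Siglecs bind sialic acids. Siglec1, the sialoadhesin of tissue macrophages (chr2:131069220-131086765), was the most abundant by CPM, at 2.85, 5.50 and 7.72 CPM in control and 5.23, 2.86 and 4.82 CPM in SS tumors. All SS tumors lay within the range of the controls. In edgeR's fit the log2 fold change was -0.32 ± 0.43 (SE; edgeR unadjusted p = 0.481), and it was 0.0429 without control tumor 3.

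Siglecf, an inhibitory Siglec known from eosinophils and alveolar macrophages (chr7:43351341-43359470), had the largest nominal rise of the 20. It was at 0.553, 0.983 and 1.19 CPM in control and 2.54, 0.477 and 2.03 CPM in SS tumors. SS tumors 1 and 3 were above all controls and SS tumor 2, with 4 counts, was below them. The fitted log2 fold change was 0.89 with a 95% interval from -0.67 to 2.44 (edgeR unadjusted p = 0.223, adjusted p = 0.871), and leaving out 1 tumor moved it between 0.47 and 1.31.

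Siglece, an inhibitory Siglec of myeloid cells, was at 0.870, 2.85 and 0.985 CPM in control and 0.871, 0.715 and 1.77 CPM in SS tumors. Control tumor 2 stood above the rest. For Siglece the log2 fold change was -0.48 ± 0.66 (SE; edgeR unadjusted p = 0.485), and 0.27 without control tumor 2. Siglech, a marker of plasmacytoid dendritic cells and microglia, had 30, 6 and 0 counts in control and 15, 0 and 4 counts in SS tumors. Siglec15 had 1 to 8 counts per tumor and Siglecg, an inhibitory receptor of B cells, had 0 to 5.

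The Cd300 receptors bind lipids exposed on dying cells and other surfaces. Cd300c2, the one tested (chr11:114996769-115001880), was at 1.50, 1.08 and 1.19 CPM in control and 1.31, 0.239 and 0.761 CPM in SS tumors. SS tumors 2 and 3 were below all controls and SS tumor 1 was among them. For this gene the log2 fold change was -0.66 ± 0.64 (SE; edgeR unadjusted p = 0.329), and it was -1.28 without SS tumor 1 and -0.27 without SS tumor 2. The sum of the 5 Cd300 genes was 3.16, 1.87 and 2.30 CPM in control and 2.18, 0.715 and 1.44 CPM in SS tumors. These ranges overlapped. Of the 4 with few reads, Cd300ld, named after its values were seen, had 7, 8 and 7 counts in control and 4, 1 and 2 counts in SS tumors, and its CPM overlapped by a narrow margin.

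Activating C-type lectins sense fungal and mycobacterial glycans and products of dead cells. Clec4e, or Mincle (chr6:123281789-123289871), was at 1.19, 2.06 and 2.54 CPM in control and 2.32, 0.358 and 1.69 CPM in SS tumors. SS tumor 2 alone, with 3 counts, lay below the controls. In edgeR's fit the log2 fold change was -0.39 ± 0.67 (SE; edgeR unadjusted p = 0.576), and 0.0452 without SS tumor 2. Clec7a, the beta-glucan receptor Dectin-1, ranged from 0.711 to 1.61 CPM, Clec4n, or Dectin-2, from 0.493 to 0.944 CPM, and Clec5a, which signals through Tyrobp, from 1.02 to 1.69 CPM. Their log2 fold changes were 0.34, 0.29 and 0.13, with standard errors of 0.50, 0.53 and 0.46.

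Clec10a (chr11:70166623-70170836) was at 2.13, 0.688 and 1.35 CPM in control and 2.98, 1.91 and 1.61 CPM in SS tumors. Control tumor 1 lay among the SS tumors, above SS tumors 2 and 3. The fitted log2 fold change was 0.65 ± 0.55 (SE; edgeR unadjusted p = 0.273). It was 1.08 without control tumor 1 and 0.32 without control tumor 2. Mgl2, with which it shares sequence, was at 2.36 to 4.03 CPM in control and 2.87 to 6.82 CPM in SS tumors, with a log2 difference of 0.71 ± 0.42 (SE; edgeR unadjusted p = 0.133).

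Among lectin genes with few reads, Clec2d, a ligand of NK cell receptors, had CPM that did not overlap between the groups, with 2, 0 and 1 counts in control and 6, 4 and 2 counts in SS tumors. It was below the filter, was singled out after its values were seen, and its control tumors were all at or under 3 counts. Control tumor 1 and SS tumor 3 had the same 2 counts, at 0.158 and 0.169 CPM. They were thus kept apart by library scaling only. Clec2l had 4, 3 and 8 counts in control and 4, 8 and 14 counts in SS tumors. It was not tested with all 6 tumors. Without SS tumor 1 it entered the test through SS tumors 2 and 3, the group where it is high, so its unadjusted p of 0.0433 in edgeR's test there is no evidence of a difference. Clec1a had 0 to 10 counts, with 0 in 3 of the tumors.

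Some members are lectin-like by name but act outside the cell or within it. Clec16a (chr16:10545339-10744878) was at 25.9, 29.5 and 33.5 CPM in control and 35.1, 37.6 and 26.3 CPM in SS tumors. SS tumors 1 and 2 were above the controls and SS tumor 3 was among them. Its log2 fold change of 0.15 had the narrowest 95% interval of the members, from -0.26 to 0.57 (edgeR unadjusted p = 0.419), and leaving out 1 tumor moved it between 0.0495 and 0.29.

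Clec3b, which encodes the secreted plasminogen-binding protein tetranectin (chr9:123150946-123157432), was at 4.43, 0.541 and 0.0410 CPM in control and 0.871, 1.31 and 0.507 CPM in SS tumors. The controls spanned 56 counts to 1 count, with all SS tumors between. The fitted log2 fold change was -0.87 ± 1.25 (SE; edgeR unadjusted p = 0.509), and it was 1.61 without control tumor 1. The summed adipocyte markers stood at 260, 29.1 and 13.8 CPM in the same order of control tumors, and at 141, 154 and 55.9 CPM in SS tumors. Their part in the Clec3b level was not tested. Clec11a, a secreted growth factor for bone cells, had 29 counts in control tumor 2 and 0 to 5 elsewhere. Clec18a had 12 counts in control tumor 1, 14 in SS tumor 3 and 0 in the others.

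**Figure D3:**
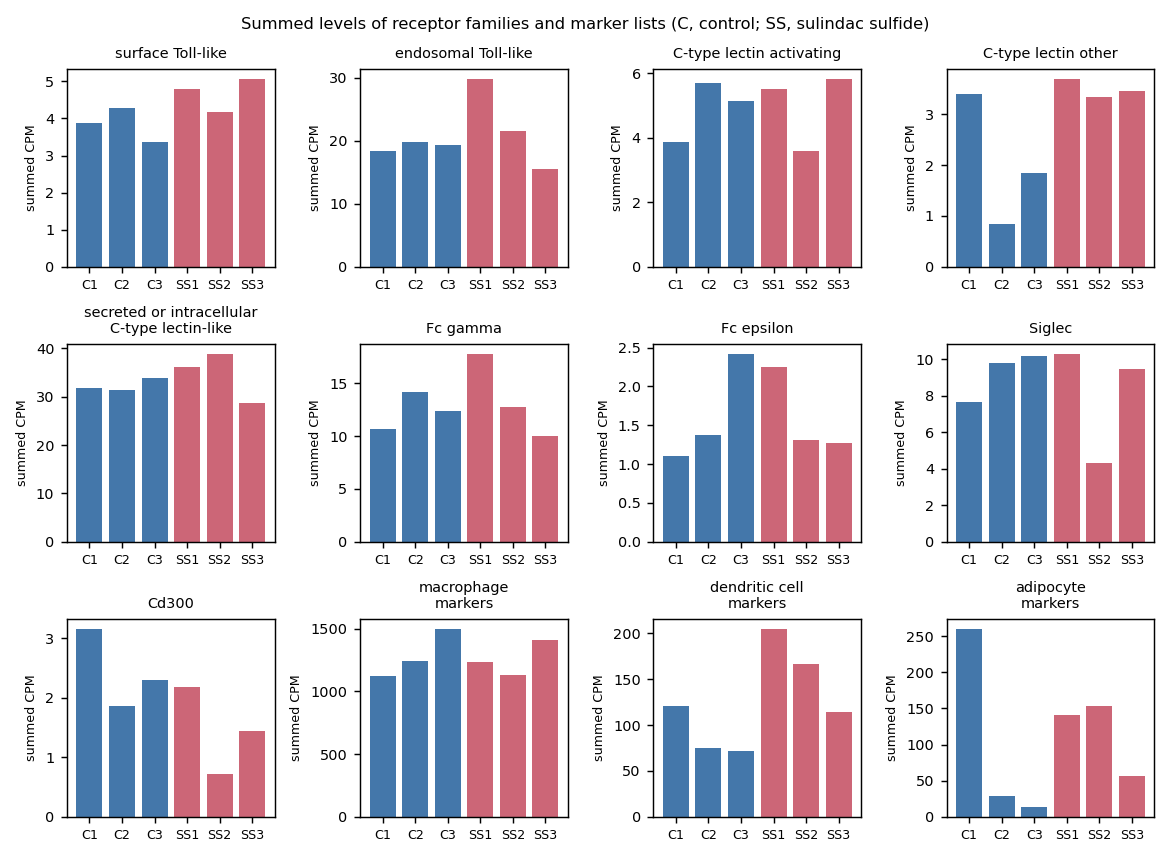
Summed CPM in each tumor, as a bar per tumor with the groups distinguished by color. Panels show each receptor family and the macrophage, dendritic cell and adipocyte marker lists. The ranges of control and SS tumors overlap in every family, and SS tumor 1 is highest for endosomal Toll-like receptors at 29.8 CPM and for Fc gamma receptors at 17.8 CPM.

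Summed over all 38 genes the level was 84.0, 89.3 and 90.7 CPM in control and 112, 90.6 and 80.8 CPM in SS tumors. SS tumor 1 was the highest and SS tumor 3 the lowest of the 6. Means were 88.0 ± 3.50 CPM (SD, n = 3) for the control group and 94.6 ± 16.2 CPM (SD, n = 3) for the SS group. Without Clec16a the sums were 58.1, 59.8 and 57.2 CPM in control and 77.3, 53.1 and 54.5 CPM in SS tumors. The endosomal Toll-like receptors summed to 18.4, 19.8 and 19.3 CPM in control and 29.8, 21.6 and 15.6 CPM in SS tumors.

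The sum of all members was highest in SS tumor 1. That tumor held the highest CPM for 9 of the 20 tested members, or 45%, against 17.5% of all genes tested. The 9 were Tlr3, Tlr7, Tlr8, Fcgr1, Fcgr2b, Fcgr3, Siglecf, Clec10a and Clec4n. SS tumor 2 held the lowest for 6 members, or 30%, against 19.1% of all genes. Without SS tumor 1 the median log2 fold change of the tested members was -0.06. The log2 values of 11 members, or 55%, varied more among SS than among control tumors, against 52.3% of all genes.

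Markers of the cells that carry these receptors were set beside them. The 11 macrophage markers summed to 1124, 1244 and 1499 CPM in control and 1230, 1129 and 1408 CPM in SS tumors, with 0 of 11 tested below an unadjusted p of 0.05 in edgeR's test. SS tumor 1, the highest for the members, lay within the control range. The 11 measured dendritic cell markers summed to 121, 74.5 and 71.9 CPM in control and 205, 166 and 114 CPM in SS tumors. That sum was led by Itgax, an integrin also made by macrophages, at 66.9, 49.5 and 50.9 CPM in control and 173, 131 and 89.6 CPM in SS tumors. Its log2 fold change was 1.24 ± 0.24 (SE; edgeR unadjusted p = 0.001004, adjusted p = 0.679, DESeq2 adjusted p = 0.0002776), and SS tumor 1 was highest here too. Of the 7 tested dendritic cell markers 3 were nominally higher and 4 lower, with a median log2 fold change of -0.03, and 1, Itgax, had an edgeR p under 0.05 before adjustment. Among transcription factors of these cells, the log2 difference was -0.49 for Irf8, -0.23 for Zbtb46 and 1.05 for Batf3. Itgae, an integrin of some dendritic and T cells, had the largest log2 difference of the list at 1.40 ± 0.79 (SE; edgeR unadjusted p = 0.117). Its groups did not overlap, but its level was low, at 0.0492 to 0.553 CPM in control and 0.798 to 1.01 CPM in SS tumors, and it passed the filter through the SS tumors, so it adds no support to the count of higher markers. The markers other than Itgax had no common direction, and the part of these cells in the receptor levels was not tested.

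Markers of other cells overlapped between the groups in their sums. Neutrophil markers summed to 6.10 to 17.9 CPM over the 6 tumors, with 5 of 11 listed genes in the table and the protease Mmp9 leading at a mean of 7.39 CPM, and mast cell and basophil markers to 8.36 to 26.7 CPM with 5 of 10, led by Hdc at a mean of 8.55 CPM. B cell markers summed to 17.8 to 88.1 CPM with 4 of 8, mostly from Ebf1, which adipocyte precursors also make, and NK and T cell markers to 5.32 to 49.3 CPM with 3 of 11. Endothelial and platelet markers summed to 52.5 to 133 CPM with 9 of 11, led by Cdh5 at a mean of 32.2 CPM, and 1 of 5 tested, Vwf, had an unadjusted p of 0.0191 in edgeR's test (log2 fold change 1.20). Control tumor 1 was highest for mast cell, B cell, T cell and adipocyte markers. Of the 13 tumor cell genes, Krt18 had an unadjusted p of 0.00387 in edgeR's test (log2 fold change -0.50, adjusted p = 0.760), and Vim was the most abundant.

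Genes that work with the receptors were read in the same fit. Of the co-receptors and chaperones of Toll-like receptors, 6 of 8 measured genes were tested, 1 nominally higher and 5 lower, with a median log2 fold change of -0.08. Cd14, which hands lipopolysaccharide and other ligands to Toll-like receptors, was at 15.3, 15.1 and 21.1 CPM in control and 10.1, 11.0 and 13.3 CPM in SS tumors. Every SS tumor lay below every control, with a log2 fold change of -0.59 and a standard error of 0.21 (edgeR unadjusted p = 0.0242, adjusted p = 0.771). Unc93b1, which carries Toll-like receptors to endosomes, was at 70.5 to 102 CPM with a log2 fold change of -0.06, and the chaperone Hsp90b1, at a mean of 1188 CPM, had one of -0.10.

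Downstream of the Toll-like receptors, 17 of 21 signaling genes were tested, 6 nominally higher and 11 lower, and 0 had an edgeR p under 0.05 before adjustment. Their median log2 fold change was -0.18. Tab2, a scaffold of the kinase Map3k7, was the most abundant at a mean of 343 CPM, with a log2 fold change of -0.30 (edgeR unadjusted p = 0.0518). Myd88, the adaptor of most Toll-like receptors, was at 10.5 to 15.0 CPM in control and 14.6 to 24.2 CPM in SS tumors. Its log2 fold change was 0.43 (edgeR unadjusted p = 0.134). Ticam1, the other adaptor, went the other way, at 0.410 to 0.632 CPM in control and 0.169 to 0.363 CPM in SS tumors. It had too few counts for a test.

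Of the ITAM adaptors and kinases that serve the lectins and Fc receptors, 16 of 19 measured genes were tested, 7 nominally higher and 9 lower, with a median log2 fold change of -0.03. Card9, the adaptor that links Syk-coupled lectins to NF-kappaB, was at 21.5, 22.9 and 14.7 CPM in control and 27.8, 30.4 and 28.0 CPM in SS tumors. Every SS tumor lay above every control, with a log2 fold change of 0.55 and a standard error of 0.19 (edgeR unadjusted p = 0.0236, adjusted p = 0.771). It was the 1 of the 16 with an edgeR p under 0.05 before adjustment, where 6.36% of all genes tested had one. Syk had a log2 difference of 0.34 ± 0.15 (SE; edgeR unadjusted p = 0.0526), and Prkcd, the most abundant at a mean of 160 CPM, one of 0.17.

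In the remaining lists 0 genes had an edgeR p under 0.05 before adjustment. The 4 phosphatases that ITIM receptors recruit had a median log2 fold change of -0.06, and Inppl1 led them at a mean of 194 CPM. Of the other lectin receptors, 10 of 11 measured genes were tested, 8 nominally higher and 2 lower, with a median of 0.17. Mrc1, the macrophage mannose receptor, led them at 299 to 446 CPM with a log2 fold change of 0.19 (edgeR unadjusted p = 0.170). Of the other paired Ig-like receptors 4 of 9 were tested, with a median of 0.26 and Sirpa, a receptor for Cd47, leading at a mean of 13.0 CPM. Of the other Fc and immunoglobulin-binding receptors 2 of 6 were tested, and Fcrls led at a mean of 3.49 CPM with a log2 fold change of 1.12 (edgeR unadjusted p = 0.0562).

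The deposited counts also divide each gene among its RefSeq transcripts, and 11 members had more than 1. In Fcgr3 and Siglecf the division was the same in every tumor to within 1 percentage point, at 60.7% to 39.3% and at 88.4% to 11.6%, although Fcgr3 had 7 to 26 and Siglecf 4 to 35 counts per tumor. Shares that constant at so few counts are not read here as measured isoform levels. Tlr7 likewise had the same shares in all tumors but control tumor 1. In 5 others, Clec4n, Clec5a, Clec7a, Fcgr2b and Siglech, the share of a transcript moved by more than 50 points between tumors. For Fcgr2b one transcript held 0.914%, 64.4% and 16.0% in control and 0.914%, 0.914% and 63.0% in SS tumors. It stood at the same 0.914% in 3 tumors, and Siglech likewise had the same shares, 72.2% to 27.8%, in 3 of the 4 tumors in which it had counts, so these shares are not read as isoform levels either. For Clec16a the lesser transcript held 9.65%, 1.52% and 4.93% in control and 0.23%, 28.6% and 40.8% in SS tumors. SS tumor 1 was the lowest of the 6 and SS tumors 2 and 3 the highest, so the groups overlapped. How reads were assigned to transcripts is not given in the sources used here, its part in these shares was not tested, and low depth, down to 55 counts over the 6 tumors for Siglech, limits these shares.

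**Figure D4:**
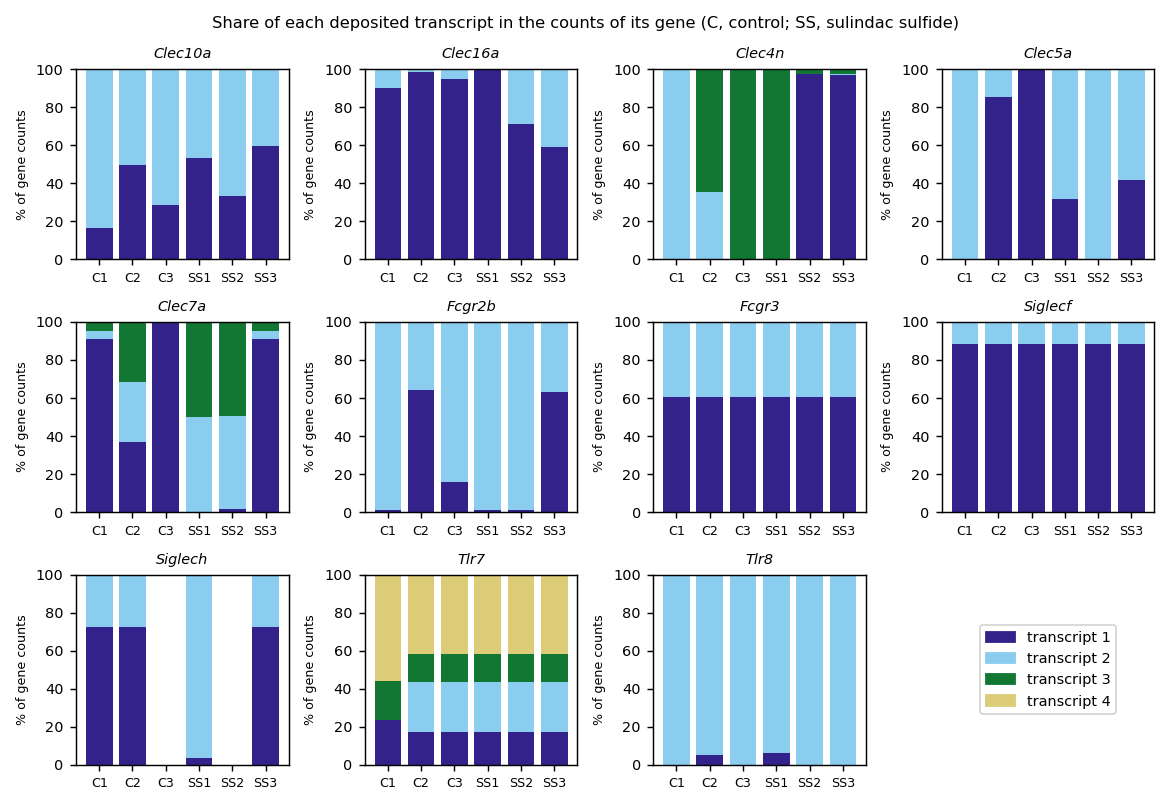
Percent of each gene's counts assigned to each of its RefSeq transcripts, as stacked bars per tumor for the 11 members with several transcripts, numbered in order of accession, and blank where the gene had 0 counts. Bars are alike in all tumors for Fcgr3 and Siglecf and change from tumor to tumor within a group for Clec4n, Clec5a, Clec7a and Fcgr2b.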

How the data were processed

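RNA from 6 tumors, 3 control and 3 SS, was sequenced by the authors from stranded, polyadenylated libraries as read pairs of 75 bases. The authors deposited estimated counts for 20648 RefSeq transcripts, without normalization, after removing entries with very low counts; each has at least 10 counts over the 6 tumors. The submitters' processing notes name CASAVA 1.8.1, Bowtie2 2.2.5, STAR 2.5.3a and mm10, with no role given. The counting tool is not given in the sources used here.

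Transcripts were summed per symbol, 21 symbols held as dates were restored, and sums were rounded. Library totals ran from 8468948 to 24441553 counts. edgeR 4.0.16 in R 4.3.3, with its filter on low counts and TMM scaling, tested 10902 genes by quasi-likelihood with Benjamini-Hochberg adjustment, in place of the quantile normalization and per-gene test of the study's methods, since the values are counts. CPM uses TMM-scaled totals. Alternatives were RLE and upper-quartile scaling, quantile normalization with limma 3.58.1, DESeq2 1.42.0, no filter, the replicate number as a block, and leaving out each tumor. The code was tested on simulated data.

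Groups and replicate numbers come from the sample titles. Deposited ends lay 1 base past RefSeq's for 51.2% of transcripts, so 1 was subtracted. Transcript lengths are from GENCODE and promoters from RefSeq, both on GRCm38.

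The members, the lists of partner genes and the cell type markers were chosen with earlier results of these data known. Members named are the most abundant tested one of each family, those with an unadjusted p under 0.05 or with groups that do not overlap, and the 5 largest nominal rises and falls; others appear with their family. Of each list, genes with an unadjusted p under 0.05 and the most abundant gene are named, with a few partners of members added afterwards.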

Additional observations from a re-analysis of the deposited data

How the results depend on the processing

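The count of members at an unadjusted p under 0.05 was 0 under RLE and upper-quartile scaling, quantile normalization with limma, DESeq2, no filter and the replicate block, and ranged from 0 to 1 when single tumors were left out (Tlr3 without SS tumor 3, and Clec2l without SS tumor 1, which then passed the filter only through the SS tumors, where it is high, and is not read as a call). Over all genes the adjusted count was 0 in each of these fits, those without 1 tumor included, except in DESeq2, where it was 35. Unadjusted counts over all genes ran from 520 to 877 when 1 tumor was left out. The median log2 fold change of the tested members stayed between 0.0582 and 0.0846 under the other settings. It ran from -0.06 to 0.16 when 1 tumor was left out, lowest without SS tumor 1. Same-numbered tumors come from different mice, and their deviations correlated at 0.116, 0.0205 and 0.0767, so the numbers were not taken as pairs. With the replicate block, 643 genes had an unadjusted p under 0.05, the members' median was 0.0846 and Clec3b turned to 0.46.

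Of 90 values of the 15 named members under the settings that keep all tumors, 87 kept their direction and 3 reversed. Quantile normalization gave 0.22 for Clec3b and 0.0453 for Fcer1g, and the block is the third. Leaving out 1 tumor gave log2 fold changes from -1.46 to 1.61 for Clec3b, -0.89 to 0.0452 for Clec4e, -0.35 to 0.38 for Fcer1g, -0.23 to 0.22 for Fcgr1, -0.61 to 0.0429 for Siglec1, -0.98 to 0.27 for Siglece, -0.15 to 0.22 for Tlr8 and -0.80 to 0.22 for Tlr9. The other 7 named members kept their direction but not their size, with ranges from -1.28 to -0.27 for Cd300c2, 0.32 to 1.08 for Clec10a, 0.0495 to 0.29 for Clec16a, 0.33 to 0.71 for Fcgr2b, 0.47 to 1.31 for Siglecf, 0.27 to 0.49 for Tlr2 and 0.15 to 0.90 for Tlr3. The cause of these reversals was not tested. Depth is the limit for the 18 members below the filter, with 10 to 55 counts over the 6 tumors, and for SS tumor 2, the smallest library.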
